A study of Homo sapiens with 6 samples.

Results

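Cadherins and protocadherins were examined in MDA-MB-231 cells, a triple-negative breast cancer line, with and without knockdown of HMGA2, an architectural chromatin protein that binds AT-rich DNA. The members were taken by symbol: CDH followed by a number, PCDH followed by a number, and the PCDHA, PCDHB and PCDHG genes, with their pseudogenes and antisense or divergent transcripts. This gave 102 of the 61806 genes counted, namely 23 cadherins, 60 genes of the clustered protocadherins and 19 other protocadherins. RNA was sequenced from 3 lines with 2 libraries each. The shNC line carried a control shRNA, while the shHMGA2-1 and shHMGA2-2 lines carried different shRNAs against HMGA2. According to the study's methods the shRNAs were delivered by lentivirus and selected with puromycin, and each knockdown line was grown from a single clone, so the effect of the shRNA and the history of the clone cannot be told apart. The labels do not say whether libraries of a line came from separate cultures, and the p-values measure only the spread between these libraries. In the library names the control samples are written as WT and the shHMGA2-1 samples carry SH2; the groups here follow the sample titles.

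Cadherins are calcium-dependent adhesion proteins of the cell surface. Type I and type II cadherins bind the same kind of molecule on the next cell and are tied to actin through catenins at adherens junctions; the loss of CDH1 (E-cadherin) with a gain of CDH2 (N-cadherin) is the textbook mark of an epithelial-mesenchymal transition, and MDA-MB-231 cells are known to lack CDH1. Protocadherins have a similar outer part but no catenin-binding tail. The clustered protocadherins lie side by side in the PCDHA, PCDHB and PCDHG clusters on chromosome 5. In neurons each cell uses a different handful of them, chosen by the promoter in front of each variable exon, with DNA methylation and CTCF-cohesin looping known to take part, which gives a cell its surface identity. The protocadherins outside the clusters (delta-1, delta-2 and others) have their own genes on several chromosomes.

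The libraries held 16461178 to 17167293 counted reads. HMGA2 was counted 2126 and 2161 times in shNC, 858 and 989 times in shHMGA2-1, and 435 and 482 times in shHMGA2-2. Its log2 fold change against shNC was -1.29 ± 0.09 (SE) in shHMGA2-1 and -2.31 ± 0.09 in shHMGA2-2, with edgeR adjusted p = 2.17e-11 and 2.11e-16, so the knockdown was deeper in the second line. Among marker lists, the summed level of 10 epithelial genes was 232 to 235 reads scaled to library size (CPM) in shNC, 199 to 220 CPM in shHMGA2-1 and 305 to 324 CPM in shHMGA2-2, and that of 10 mesenchymal genes was 4749 to 4883 CPM, 4192 to 4227 CPM and 3701 to 3792 CPM. Of the 7 tested genes of each list, 3 epithelial genes rose and 2 fell in shHMGA2-2, and 1 mesenchymal gene rose and 3 fell. In shHMGA2-1 these counts were 1 and 1, and 0 and 1. Over all genes tested, 11.7% rose and 9.65% fell in shHMGA2-2 by the same thresholds, and 4.89% and 3.59% in shHMGA2-1. CLDN4 and KRT19, epithelial genes, and FN1, the mesenchymal matrix protein fibronectin, were among those that fell in shHMGA2-2. CLDN3, an epithelial claudin, rose from 0 and 5 counts in shNC to 33 and 46. It was high enough to be tested only through the knockdown lines, so it could only be called higher than shNC. The rise of the epithelial sum in shHMGA2-2 rested on KRT8. Its mean went from 79.1 CPM in shNC to 188 CPM (log2 1.25 ± 0.08, edgeR adjusted p = 1.65e-12). The summed level of 8 endothelial genes stayed at or below 5.66 CPM and that of 8 leukocyte genes at or below 8.30 CPM; of these lists edgeR called PECAM1 and LCP1, lower in both knockdown lines than in shNC, and DESeq2 called LCP1 but not PECAM1 (14 and 11 counts in shNC, 2 and 0 in each knockdown line). PECAM1 was high enough to be tested only through shNC, so it could only be called lower. Of the 3 receptor genes listed (ESR1, PGR and ERBB2), ESR1 and PGR were too low to be tested. ERBB2 was not low, with means of 70.7 CPM in shNC, 97.4 CPM in shHMGA2-1 and 96.3 CPM in shHMGA2-2. Its log2 fold changes against shNC were 0.46 ± 0.10 and 0.45 ± 0.10 (edgeR adjusted p = 0.00048 and 0.00028), under 2-fold. Neither edgeR nor DESeq2 called it. CDH1, CDH2 and CDH5 belong to these lists as well as to the members.

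Most members were silent or nearly silent. A total of 25 were at 0 in every library and 19 more reached 1 to 3 counts at most; a count of 0 allows a level of up to 0.172 to 0.184 CPM, depending on the library (3 counts, counting error only). A further 26 members exceeded 3 counts somewhere but were too low to be tested, with a highest count of 18. The remaining 32 members passed the filter on low counts, and these were 3 cadherins, 24 clustered protocadherins and 5 other protocadherins. A member was called when it differed at least 2-fold with an adjusted p under 0.05.

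By length-normalized level (FPKM, fragments scaled to gene length and library total), CDH4 stood far above the others, with a mean of 12.7 in shNC, 13.5 in shHMGA2-1 and 14.5 in shHMGA2-2. CDH24 followed with 4.59, 3.17 and 3.14 FPKM. The order of the clustered protocadherins differed between lines. By the mean over all 6 libraries, which includes the lines where they were higher, the first were PCDHB14 with 0.72, 1.41 and 3.05 FPKM, PCDHB10 with 1.16, 2.23 and 1.78 FPKM, and PCDHB13 with 0.53, 1.16 and 3.12 FPKM. In shNC alone the first were PCDHGB1 with 1.77, PCDHGC3 with 1.28 and PCDHB11 with 1.18 FPKM, and in shHMGA2-1 PCDHB10 was followed by PCDHB11 with 2.02 FPKM. These orders were not tested. Of the protocadherins outside the clusters, PCDH7 was the highest in shNC and shHMGA2-1 with 0.94 and 0.95 FPKM, while in shHMGA2-2, at 0.07 FPKM, it was below PCDH1 with 0.25, PCDH12 with 0.14 and PCDH9 with 0.09 FPKM. CDH4 alone took between 46.7% and 51.9% of all reads counted to members over the 6 libraries.

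In the comparison of shHMGA2-1 with shNC, 6 of the 32 tested members were called, 5 higher and 1 lower, against 8.49% of all 16110 genes tested (4.89% higher and 3.59% lower). In shHMGA2-2 against shNC, 18 were called, 14 higher and 4 lower, against 21.3% of all genes (11.7% higher and 9.65% lower). Between the knockdown lines, 17 were called, 11 higher and 6 lower in shHMGA2-2, against 15.1% of all genes (7.83% higher and 7.27% lower). Without the minimum fold, 11 members passed in shHMGA2-1, against 33.4% of all genes. In shHMGA2-2 22 of the 32 members passed, and 18 between the knockdown lines, and in each a majority of all genes passed as well. At this threshold the members stood closer to all genes, so the contrast given above depends on the minimum fold. Whether low counts of members added to it was not tested. The clustered protocadherins held most of the members called with the minimum fold: 6 of 24 in shHMGA2-1 (5 higher), 14 of 24 in shHMGA2-2 (13 higher) and 13 of 24 between the knockdown lines (10 higher in shHMGA2-2). Their median log2 fold change was 0.44 in shHMGA2-1 and 1.35 in shHMGA2-2, beside medians of 0.01 and 0.03 over all genes. The comparisons with shNC share its 2 libraries, and the comparison between the knockdown lines reuses their libraries. A gene with low counts passes the filter only through the lines where it is read, so these counts describe the members tested and not the family. PCDHAC1, PCDHAC2, PCDHB2 and PCDHB6, at or under the floor in shNC, passed this way and could only be called higher than shNC. PCDH1, PCDHGA1 and PCDHGA7, low in shNC, also passed only through knockdown lines.

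Of the 3 tested cadherins, none was called in shHMGA2-1 (1 had an unadjusted p under 0.05, and DESeq2 called none), and 1, CDH20, was called in each of the other comparisons. CDH4 (R-cadherin, a type I cadherin best known from retina and brain) was counted 1544 and 1702 times in shNC, 1862 and 1606 times in shHMGA2-1, and 1710 and 1896 times in shHMGA2-2. The 3 lines overlapped. Its log2 fold change was 0.02 ± 0.08 in shHMGA2-1 (95% interval -0.15 to 0.18) and 0.07 ± 0.08 in shHMGA2-2 (-0.10 to 0.24), which leaves no room for a 2-fold change. CDH24, a type II cadherin, was counted 276 and 308 times in shNC, 231 and 176 times in shHMGA2-1, and 179 and 210 times in shHMGA2-2. All knockdown libraries lay below the control libraries, by log2 -0.60 ± 0.14 (edgeR adjusted p = 0.0018) and -0.67 ± 0.14 (adjusted p = 0.00028), short of 2-fold in both.

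CDH20, another type II cadherin, was counted 9 and 16 times in shNC, 16 and 23 times in shHMGA2-1, and 4 and 4 times in shHMGA2-2. It was lower in shHMGA2-2 than in shNC by log2 -1.69 ± 0.65 (adjusted p = 0.026) and lower than in shHMGA2-1 by -2.25 ± 0.61 (adjusted p = 0.0028). The first of these calls was lost without shNC replicate 2 (log2 -1.22), without shHMGA2-2 replicate 1 (-1.71) and without shHMGA2-2 replicate 2 (-1.68), and with DESeq2 (-1.74). CDH20 passed the filter on low counts only through shHMGA2-1 and shNC replicate 2, so in shHMGA2-2 it could only be called lower.

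The cadherins of the textbook switch were near the limit of detection. CDH1 was at 0 in shNC, at 1 and 2 counts in shHMGA2-1, and at 4 and 3 counts in shHMGA2-2. CDH2 was counted 8 and 4 times in shNC, 0 and 1 times in shHMGA2-1, and 4 and 14 times in shHMGA2-2. Its level was 12.7 times lower in shHMGA2-1 than in shNC (exact counting interval 1.88 to 542) and 18.0 times higher in shHMGA2-2 than in shHMGA2-1 (2.84 to 749). These intervals cover counting error only, while the 2 libraries of shHMGA2-2 lay at 4 and 14 counts. CDH3 (P-cadherin, of basal epithelium) was at 0 in shNC, at 7 and 8 counts in shHMGA2-1, at least 2.37-fold above the floor of 3 counts per shNC library, and at 5 and 1 counts in shHMGA2-2. CDH5 (VE-cadherin of endothelium) was at 0 and 4 counts in the control line, 1 and 1 counts in shHMGA2-1, and 1 and 0 counts in shHMGA2-2. CDH6 and CDH13 were at 0 everywhere, and CDH11, a mesenchymal cadherin, was at 1 count in 1 library of shHMGA2-1. None of these genes passed the filter on low counts, so none was tested.

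**Figure D1:**
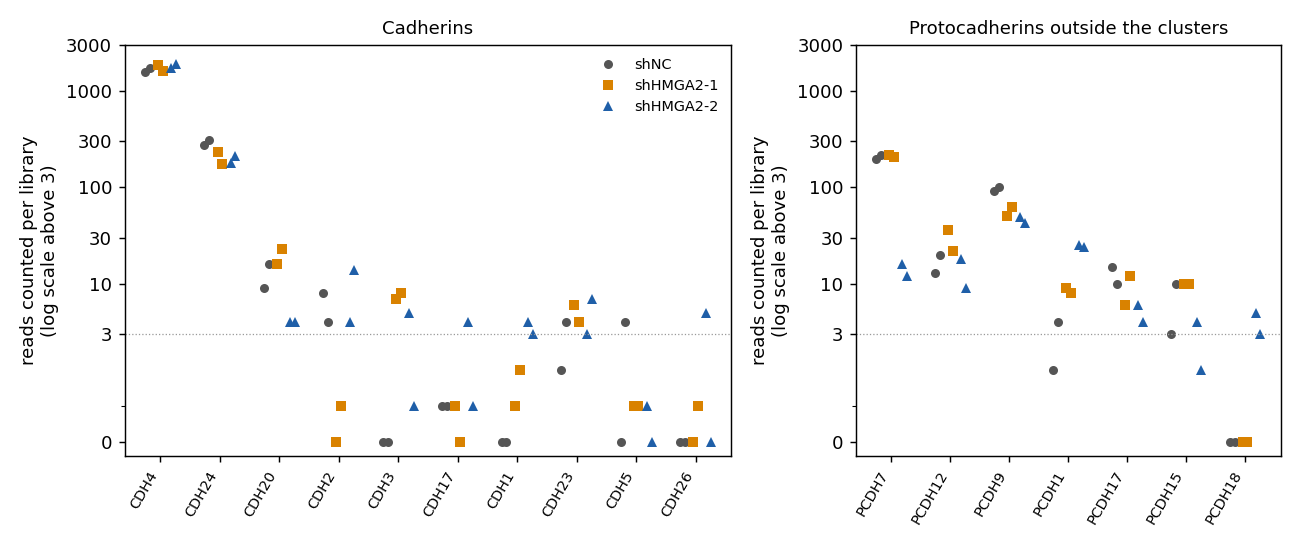
Reads counted per library (vertical axis, log scale above 3 and linear below) for 10 cadherins and 7 protocadherins outside the clusters that exceeded 3 counts somewhere. Points are single libraries, grey circles shNC, orange squares shHMGA2-1 and blue triangles shHMGA2-2; CDH4 lies between 1544 and 1896 counts in every library, and PCDH7 drops to 16 and 12 counts in shHMGA2-2.

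PCDH7 showed the largest fall among the tested members. It is a delta-1 protocadherin, ENSG00000169851, at chr4:30720369-31146805 on the forward strand (GRCh38.p13). It was counted 198 and 214 times in shNC, 215 and 204 times in shHMGA2-1, and 16 and 12 times in shHMGA2-2. The first 2 lines overlapped and differed by log2 -0.05 ± 0.15. In shHMGA2-2 it was 15.4 times lower than in shNC (log2 -3.95 ± 0.23, edgeR adjusted p = 2.31e-13) and 14.9 times lower than in shHMGA2-1 (log2 -3.89 ± 0.23, adjusted p = 4.91e-13).

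The other protocadherins outside the clusters did not share a direction. PCDH9, a delta-1 protocadherin of brain, was counted 91 and 101 times in shNC, 50 and 63 times in shHMGA2-1, and 49 and 43 times in shHMGA2-2. It fell by log2 1.14 ± 0.23 in shHMGA2-2 (adjusted p = 0.00016), and in shHMGA2-1 the value was -0.84 ± 0.22 (adjusted p = 0.0047), under 2-fold; without shHMGA2-1 replicate 2 it was -1.03 and past the threshold. PCDH1, a delta-1 protocadherin known from airway epithelium, went the other way. Its counts were 2 and 4 in the control line, 9 and 8 in shHMGA2-1, and 25 and 24 in shHMGA2-2. PCDH1 passed the filter on low counts only through shHMGA2-2. It was higher in shHMGA2-2 than in shNC by log2 2.90 ± 0.61 (adjusted p = 0.00019) and than in shHMGA2-1 by 1.51 ± 0.49 (adjusted p = 0.012), the latter call being lost without shHMGA2-1 replicate 2 (1.45), without shHMGA2-2 replicate 1 (1.46) and with DESeq2 (1.53). PCDH17, a delta-2 protocadherin, was counted 15 and 10, 6 and 12, and 6 and 4 times and was not called. PCDH12, a protocadherin of endothelial cells, was counted 13 and 20 times in shNC, 36 and 22 times in shHMGA2-1, and 18 and 9 times in shHMGA2-2. It was lower in shHMGA2-2 than in shHMGA2-1 by log2 -1.09 ± 0.46 (adjusted p = 0.048), a call lost without shHMGA2-1 replicate 1 (-0.71), without shHMGA2-2 replicate 2 (-0.67), with DESeq2 (-1.09), with upper quartile scaling (-1.04) and with the replicate block (-1.09).

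The PCDHA cluster was read in the knockdown lines and almost not in the control. Over its 16 genes, shNC had 1 and 0 counts in all, while shHMGA2-1 had 55 and 53 and shHMGA2-2 had 53 and 43. The summed level was 0.03 ± 0.04 CPM in shNC (SD, n = 2), 3.14 ± 0.03 CPM in shHMGA2-1 and 2.79 ± 0.47 CPM in shHMGA2-2. The C-type genes PCDHAC1 and PCDHAC2, the last variable exons of the cluster, carried most reads in shHMGA2-1. PCDHAC1 was at 0 in both shNC libraries, at 23 and 27 counts in shHMGA2-1 and at 9 and 9 counts in shHMGA2-2, and was thus at least 7.90-fold and at least 2.84-fold above the floor of 3 counts per shNC library (adjusted p = 9.27e-06 and 0.00055). It was lower in shHMGA2-2 than in shHMGA2-1 by log2 -1.46 ± 0.49 (adjusted p = 0.016), a call lost without shHMGA2-1 replicate 2 (-1.33), without either shHMGA2-2 library (-1.49 and -1.45) and with DESeq2 (-1.48). PCDHAC2 was at 1 and 0 counts in the control line, 14 and 11 counts in shHMGA2-1, and 11 and 13 counts in shHMGA2-2. This is 23.7 times higher (exact counting interval 3.87 to 972) and 22.7 times higher (3.70 to 933), with edgeR adjusted p = 0.0013 and 0.0007. PCDHAC1 passed the filter on low counts only through shHMGA2-1, and PCDHAC2 only through the knockdown lines. Both could only be called higher than shNC, and the p-values against shNC give no separate support. PCDHAC1 could also only be called lower in shHMGA2-2 than in shHMGA2-1, so that p-value gives none either.

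None of the 13 alternate PCDHA genes passed the filter of edgeR, although DESeq2, run with no such filter, called 2 of them in shHMGA2-2, and 5 of them were at 0 everywhere. All of them were at 0 in shNC. Their summed level was 0.96 ± 0.11 CPM in shHMGA2-1 and 1.57 ± 0.53 CPM in shHMGA2-2. The reads fell on a few genes. PCDHA13 was at 5 and 8 counts in shHMGA2-1 and 7 and 6 in shHMGA2-2, PCDHA4 at 4 and 0 and then 7 and 7, PCDHA10 at 4 and 4 and then 10 and 2, and PCDHA7 at 2 and 1 and then 7 and 5. PCDHA genes share their 3′ constant exons, and 21.3% to 56.6% of the exonic bases of each alternate gene also belong to another gene on the same strand in GENCODE release 29, so the split of reads among them depends on how shared exons were counted.

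The stretch before the start of these genes is shown because most windows of a gene group share a short sequence there, which some windows of other groups hold too. In the RefSeq promoter windows (GRCh38.p14, 250 bases before the start to 50 after it), TGTCGCT was found in 10 of 11 PCDHA windows, in 3 of 11 PCDHGA and 1 of 14 PCDHB windows, and in 1.76% of all 35116 windows on either strand. This motif, like the others given for the PCDHB and PCDHGA genes, was chosen by looking at these windows, and all of them contain CGCT, which 70.0% of all windows hold. The 40 bases around it are given 5′ to 3′ on the forward strand with the motif in capitals, for PCDHA4 (chr5:140806977-140807016), PCDHA7 (chr5:140834170-140834209) and PCDHA10 (chr5:140855839-140855878).
PCDHA4: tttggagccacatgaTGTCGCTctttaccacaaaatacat
PCDHA7: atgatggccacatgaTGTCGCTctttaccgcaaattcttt
PCDHA10: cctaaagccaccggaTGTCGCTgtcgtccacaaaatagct
The 5 windows of C-type genes did not hold TGTCGCT, and their median GC content was 62.3% against 36.0% in the PCDHA windows and 58.7% in all windows.

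**Figure D2:**
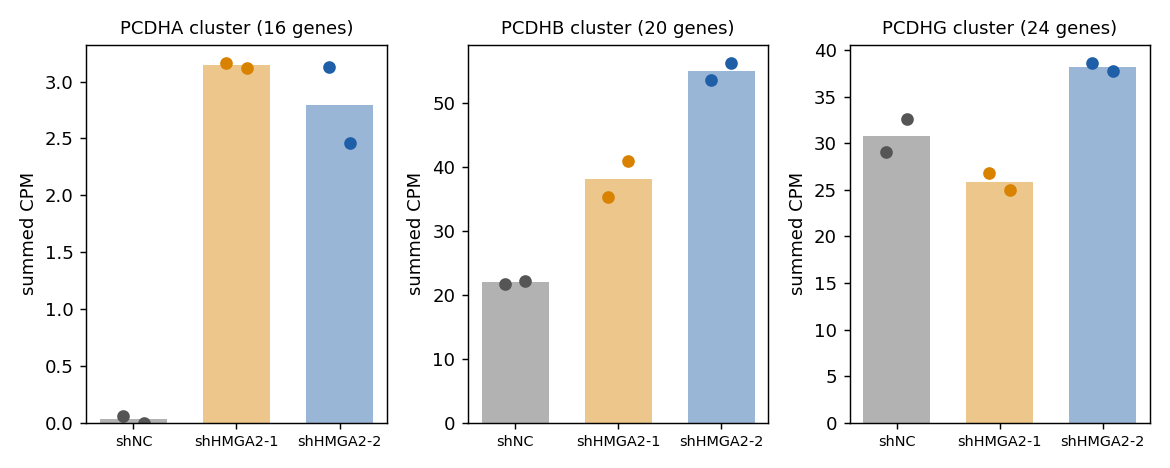
Summed level of each protocadherin cluster (vertical axis, TMM-scaled CPM, from 0; the 3 axes differ in range) in the 3 lines. Bars are means of 2 libraries and points the libraries; the PCDHA cluster is at 0.03 CPM in shNC and 3.14 and 2.79 CPM in the knockdown lines, while the PCDHB cluster goes from 21.9 to 38.1 and 54.9 CPM.

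The PCDHB cluster was read in all lines and was highest in shHMGA2-2. Its 20 genes summed to 21.9 ± 0.36 CPM in shNC, 38.1 ± 3.93 CPM in shHMGA2-1 and 54.9 ± 1.91 CPM in shHMGA2-2 (SD, n = 2), with no overlap between lines. PCDHB genes are single-exon genes without shared constant exons. Of the 11 tested, 2 were called in shHMGA2-1 and 6 in shHMGA2-2, all higher.

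PCDHB13 (ENSG00000187372, chr5:141213919-141218979) rose in steps, with 44 and 46 counts in the control line, 92 and 109 counts in shHMGA2-1, and 239 and 283 counts in shHMGA2-2. It was higher than in shNC by log2 1.08 ± 0.21 in shHMGA2-1 (adjusted p = 0.00024) and by 2.45 ± 0.18 in shHMGA2-2 (adjusted p = 3.53e-11), and differed between the knockdown lines by 1.37 ± 0.16 (adjusted p = 1.39e-07). Without shHMGA2-1 replicate 2 the first value was 0.94, under 2-fold. PCDHB14, its neighbour, was counted 46 and 62, 99 and 114, and 214 and 231 times. It was higher by 0.90 ± 0.20 in shHMGA2-1 (adjusted p = 0.0012), under 2-fold, and rose by 1.96 ± 0.19 in shHMGA2-2 (adjusted p = 2.27e-09); the difference between the knockdown lines was 1.06 ± 0.17 and dropped to 0.95 without shHMGA2-1 replicate 1. In shHMGA2-1 the call was gained without shHMGA2-1 replicate 1 (1.01) and without shNC replicate 2 (1.13).

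PCDHB16 rose in shHMGA2-2 and was not called in shHMGA2-1. It was counted 16 and 11 times in shNC, 19 and 25 times in shHMGA2-1, and 90 and 88 times in shHMGA2-2, and it was higher in shHMGA2-2 than in shNC by log2 2.63 ± 0.32 (adjusted p = 1.38e-07) and than in shHMGA2-1 by 2.01 ± 0.29 (adjusted p = 3.03e-06). PCDHB6 was at 0 in shNC, at 1 and 0 counts in shHMGA2-1, and at 13 and 11 counts in shHMGA2-2, at least 3.79-fold above the floor of 3 counts per shNC library (adjusted p = 0.00031). Its level in shHMGA2-2 was 24.0 times that in shHMGA2-1 (exact counting interval 3.91 to 985, edgeR adjusted p = 0.0012), a call lost with DESeq2. PCDHB6 passed the filter on low counts only through shHMGA2-2. It could only be called higher there, and its p-values give no separate support. PCDHB4, which was not tested, was at 0 and 0, 1 and 0, and 12 and 9 counts in the 3 lines.

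PCDHB2 was raised in both knockdown lines, from 3 and 3 counts to 14 and 28 in shHMGA2-1 and 22 and 11 in shHMGA2-2. The log2 fold changes were 2.68 ± 0.67 and 2.34 ± 0.70 (edgeR adjusted p = 0.0026 and 0.0051). The second call was lost without shHMGA2-2 replicate 1 (1.73). PCDHB2 passed the filter on low counts only through the knockdown lines, so it could only be called higher than shNC. PCDHB3, not tested, was at 0 in shNC, at 5 and 17 counts in shHMGA2-1 and at 5 and 6 in shHMGA2-2. PCDHB9 was counted 19 and 25, 34 and 37, and 41 and 67 times and rose in shHMGA2-2 by 1.21 ± 0.33 (adjusted p = 0.0031), a call that rested on shHMGA2-2 replicate 2 (0.83 without it). PCDHB10 and PCDHB11 were highest in shHMGA2-1. PCDHB10 was counted 61 and 68, 124 and 128, and 105 and 88 times, which gave 0.89 ± 0.20 (adjusted p = 0.00096) and 0.50 ± 0.20 (adjusted p = 0.036), both under 2-fold. PCDHB11 was counted 88 and 79, 140 and 148, and 64 and 80 times.

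PCDHB11 was lower in shHMGA2-2 than in shHMGA2-1 by log2 -1.002 ± 0.19 (adjusted p = 8.13e-05), a value on the 2-fold line that fell under it without shHMGA2-1 replicate 2 (-0.94), without shHMGA2-2 replicate 1 (-0.87), and with RLE size factors (-0.99), upper quartile scaling (-0.95) or a mean CPM filter (-0.98). PCDHB7, PCDHB8 and PCDHB12 were not called; for PCDHB12 the counts were 22 and 21, 23 and 26, and 21 and 25, and the 95% interval of its log2 fold change in shHMGA2-2 was -0.78 to 0.81. Between the members of this cluster, stretches of 100 bases that occur in another member made up 25.7% of PCDHB8, 24.7% of PCDHB10, 15.1% of PCDHB13, 6.38% of PCDHB16 and 4.52% of PCDHB14, so a part of the reads on these genes cannot be placed with certainty.

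Tested PCDHB genes with a promoter window carried the same motif, both those that rose in shHMGA2-2 and those not called. TGGCGCT was found in 13 of 14 PCDHB windows on the gene strand, 0 to 82 bases before the start, against 4.08% of all windows on either strand and 4 of 11 PCDHGB, 1 of 5 C-type, 0 of 11 PCDHGA and 0 of 11 PCDHA windows. PCDHB1 was the window without it, and PCDHB6 and PCDHB11 had no window in the table. Stretches of 40 bases are given for PCDHB13 (chr5:141213863-141213902), PCDHB14 (chr5:141223261-141223300) and PCDHB16 (chr5:141182308-141182347), which rose in shHMGA2-2, and for PCDHB7 (chr5:141172564-141172603) and PCDHB12 (chr5:141208641-141208680), which were not called.
PCDHB13: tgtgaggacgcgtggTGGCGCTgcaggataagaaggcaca
PCDHB14: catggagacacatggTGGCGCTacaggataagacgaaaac
PCDHB16: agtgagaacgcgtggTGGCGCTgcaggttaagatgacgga
PCDHB7: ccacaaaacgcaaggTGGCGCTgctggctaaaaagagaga
PCDHB12: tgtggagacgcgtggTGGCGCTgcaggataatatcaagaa
Over all clustered genes tested, the motif was in 41.7% of the windows of genes higher in shHMGA2-2. For genes not called there the share was 50%. The motif was chosen in PCDHB windows, so these shares mostly reflect how many PCDHB genes each class holds. They cannot relate the motif to the calls. A match is a description of letters in a window and not of a bound site.

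**Figure D3:**
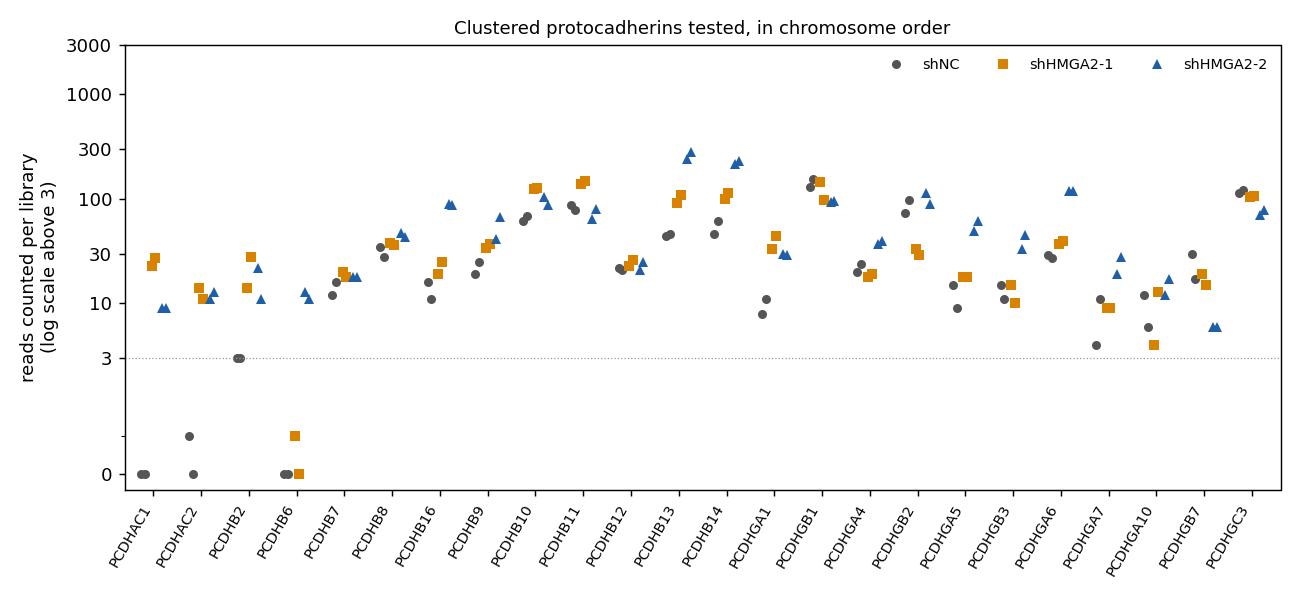
Reads counted per library (vertical axis, log scale above 3 and linear below) for the 24 clustered protocadherins tested, in the order in which they lie on chromosome 5. Points are single libraries, grey circles shNC, orange squares shHMGA2-1 and blue triangles shHMGA2-2; PCDHAC1 and PCDHB6 sit at 0 in shNC, and PCDHB13, PCDHB14 and PCDHB16 are highest in shHMGA2-2.

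In the PCDHG cluster genes moved in both directions. Its 24 genes summed to 30.8 ± 2.58 CPM in shNC, 25.9 ± 1.28 CPM in shHMGA2-1 and 38.2 ± 0.61 CPM in shHMGA2-2. In shHMGA2-2 the PCDHGA genes summed to 17.9 ± 0.32 CPM against 6.64 ± 0.44 CPM in shNC, while the PCDHGB genes summed to 15.5 ± 1.11 CPM against 16.7 ± 1.66 CPM. Of 6 tested PCDHGA genes, 4 rose in shHMGA2-2 and none fell; of 4 tested PCDHGB genes, 1 rose and 1 fell.

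PCDHGA1, the first gene of the cluster, rose in both knockdown lines, from 8 and 11 counts to 33 and 44 in shHMGA2-1 and 30 and 29 in shHMGA2-2. The log2 fold changes were 1.93 ± 0.41 (adjusted p = 0.00067) and 1.54 ± 0.43 (adjusted p = 0.0031). PCDHGA1 passed the filter on low counts only through the knockdown lines, which favoured calls higher than shNC. PCDHGA6 was counted 29 and 27, 37 and 40, and 120 and 120 times and was higher in shHMGA2-2 by 2.01 ± 0.24 (adjusted p = 9.53e-08). PCDHGA5, at 15 and 9, 18 and 18, and 49 and 61 counts, rose by 2.10 ± 0.37 (adjusted p = 3.06e-05) in the same comparison. PCDHGB3, at 15 and 11, 15 and 10, and 33 and 45 counts, rose by 1.49 ± 0.41 (adjusted p = 0.0028), a call lost with DESeq2 (1.49). PCDHGA7, at 4 and 11, 9 and 9, and 19 and 28 counts, rose by 1.55 ± 0.53 (adjusted p = 0.014), and the call was lost without shNC replicate 1 (1.00), without shHMGA2-2 replicate 2 (1.26) and with DESeq2 (1.55). PCDHGA7 passed the filter on low counts only through shHMGA2-2, so it could only be called higher there.

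PCDHGB2 was the member that fell in shHMGA2-1. It was counted 73 and 97 times in shNC, 33 and 29 times in shHMGA2-1, and 114 and 89 times in shHMGA2-2. It was lower in shHMGA2-1 than in shNC by log2 -1.53 ± 0.26 (adjusted p = 4.86e-05), whereas shHMGA2-2 overlapped with shNC (0.18 ± 0.21). PCDHGB7 fell in shHMGA2-2, where it was counted 6 and 6 times against 30 and 17 times in shNC and 19 and 15 times in shHMGA2-1; the log2 fold change against shNC was -2.03 ± 0.53 (adjusted p = 0.002). PCDHGB1 and the C-type gene PCDHGC3 were lower in shHMGA2-2 by less than 2-fold, with 130 and 156, 145 and 97, and 94 and 96 counts (-0.67 ± 0.19, adjusted p = 0.0042) and 114 and 122, 105 and 106, and 71 and 79 counts (-0.73 ± 0.19, adjusted p = 0.0015). PCDHGA10 was not called.

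Directly compared, shHMGA2-2 exceeded shHMGA2-1 at 6 consecutive tested genes of this cluster, from PCDHGA4 to PCDHGA7. The log2 differences were 1.05 ± 0.35 for PCDHGA4 (20 and 24, 18 and 19, and 37 and 40 counts), 1.71 ± 0.25 for PCDHGB2, 1.60 ± 0.35 for PCDHGA5, 1.63 ± 0.41 for PCDHGB3, 1.64 ± 0.23 for PCDHGA6 and 1.37 ± 0.51 for PCDHGA7. Of these, PCDHGA7 had passed the filter on low counts only through shHMGA2-2. PCDHGB7 further on went the other way, at -1.48 ± 0.56. The PCDHGA4 call was lost without shHMGA2-1 replicate 1 (1.00), without either shHMGA2-2 library (1.08 and 1.01) and with DESeq2 (1.06). The PCDHGA7 call was lost without shHMGA2-1 replicate 1 (1.35), shHMGA2-1 replicate 2 (1.38) or shHMGA2-2 replicate 2 (1.08) and with DESeq2 (1.38), and the PCDHGB7 call without shHMGA2-1 replicate 1 (-1.32), without either shHMGA2-2 library (-1.50 and -1.47) and with DESeq2 (-1.50). PCDHGA and PCDHGB genes share constant exons, with 27.6% to 51.3% and 32.2% to 64.4% of their exonic bases in another gene of the same strand, and neighbours are not independent measurements where reads on shared exons were counted.

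Another stretch was shared by most PCDHGA windows. CGCTGTT was found in 10 of 11 PCDHGA windows on the gene strand and in 2.26% of all windows on either strand, with 4 of 11 PCDHGB, 1 of 14 PCDHB and 0 of 11 PCDHA windows. PCDHGB2 and PCDHGB3, also in the consecutive run, are not shown. Stretches of 40 bases are given for its PCDHGA genes PCDHGA4 (chr5:141354961-141355000), PCDHGA5 (chr5:141364108-141364147), PCDHGA6 (chr5:141373836-141373875) and PCDHGA7 (chr5:141382650-141382689), with the motif in capitals.
PCDHGA4: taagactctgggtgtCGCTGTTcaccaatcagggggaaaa
PCDHGA5: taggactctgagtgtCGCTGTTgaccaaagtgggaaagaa
PCDHGA6: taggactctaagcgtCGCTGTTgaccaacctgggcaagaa
PCDHGA7: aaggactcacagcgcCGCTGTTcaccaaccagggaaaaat
PCDHGA10, which was not called, carried the motif 40 bases before its start as well.

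**Figure D4:**
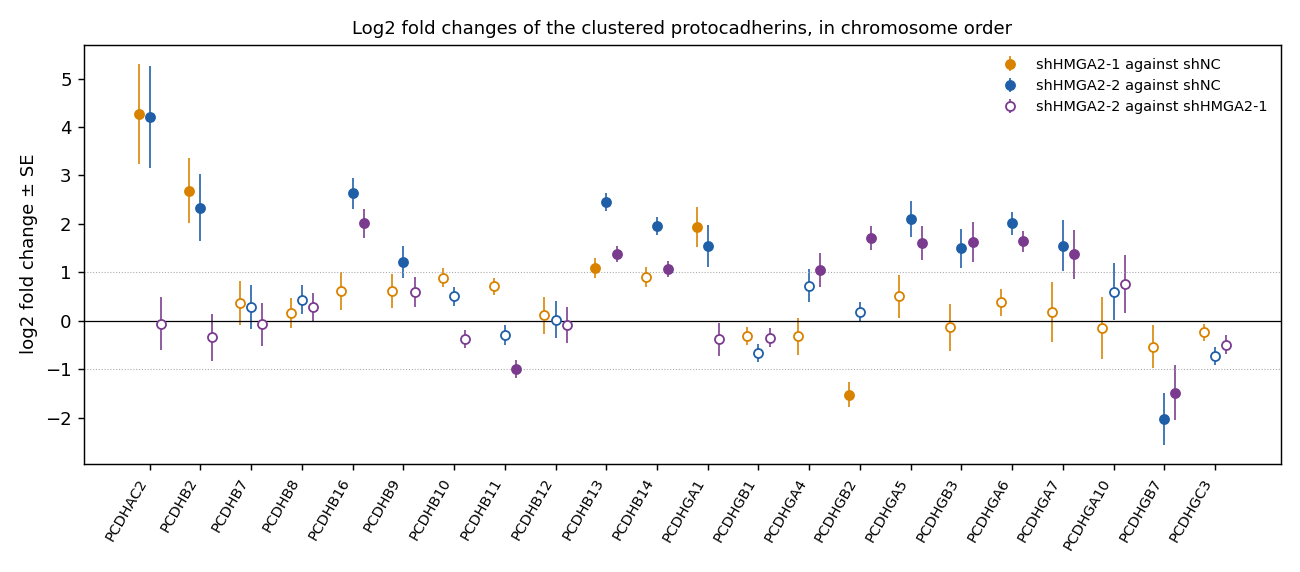
Log2 fold change (vertical axis, points with standard error bars) of 22 tested clustered protocadherins in chromosome order. PCDHAC1 and PCDHB6 are left out because they were at 0 in shNC; orange is shHMGA2-1 against shNC, blue shHMGA2-2 against shNC and purple shHMGA2-2 against shHMGA2-1, filled points were called, and dotted lines mark 2-fold. From PCDHGA4 to PCDHGA7 all purple points are filled and above 0.

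The genes around the clusters were also counted. Within 500000 bases on either side of the span chr5:140786136-141512977 (GRCh38.p13), 25 other genes were tested, of which 1 was higher and 1 lower in shHMGA2-1, 1 higher and 2 lower in shHMGA2-2, and 1 higher and 0 lower between the knockdown lines, beside the 8.49%, 21.3% and 15.1% called over all genes. Their median log2 fold changes were -0.03, 0.03 and -0.03. The called genes, named after their values were seen, were ANKHD1-DT (higher) and SLC35A4 (lower) in shHMGA2-1, SLC35A4 and ARAP3 (lower) in shHMGA2-2, and a gene known only as ENSG00000288095, which was higher in shHMGA2-2 than in both other lines and starts at chr5:141320910, between the PCDHB and PCDHG clusters. ENSG00000288095 passed the filter on low counts only through shHMGA2-2, so it could only be called higher there. TAF7, a general transcription factor gene that lies between the PCDHB and PCDHG clusters, had -0.03, -0.19 and -0.16.

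The rise of clustered protocadherins in shHMGA2-2 ran beside a rise of some neuronal genes and not of others. Of 10 neuronal marker genes, 5 were tested, and 4 of them rose in shHMGA2-2 against shNC and 2 against shHMGA2-1. Over all genes, 11.7% and 7.83% were called higher in these comparisons. In shHMGA2-1, edgeR and DESeq2 called 0 of the list (2 had an unadjusted p under 0.05). SYT1, a synaptic vesicle protein, was counted 24 and 46, 19 and 20, and 184 and 179 times, MAP2, a dendritic microtubule protein, 13 and 19, 13 and 11, and 48 and 43 times, and SNAP25, a membrane fusion protein, 3 and 3, 13 and 7, and 14 and 20 times. SNAP25 passed the filter on low counts only through shHMGA2-2, so it could only be called higher there. SYP, a synaptic vesicle protein, was counted 18 and 10, 22 and 21, and 40 and 46 times. TUBB3, a neuronal tubulin, went the other way in shHMGA2-2, at 122 and 112, 137 and 109, and 71 and 87 counts (log2 -0.65 ± 0.19, adjusted p = 0.0054, under 2-fold). The summed level of the list was 11.2 to 11.9 CPM in shNC, 10.3 to 12.1 CPM in shHMGA2-1 and 21.4 to 21.8 CPM in shHMGA2-2, and DCX, ELAVL4, NEFL and STMN2, which define neurons, were at 0 in every library. The part of these values in the protocadherin result was not tested. In bulk RNA, more cells that read a gene and more RNA per cell cannot be told apart.

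The partners of cadherins were tested as a list of 22 catenin and adherens junction genes, of which 17 could be tested. In shHMGA2-1, 4 rose and 3 fell. In shHMGA2-2, 3 rose and none was called lower. Between the knockdown lines, 4 were called higher in shHMGA2-2 and none lower. Of all genes, 8.49%, 21.3% and 15.1% were called in these comparisons. All 17 had an unadjusted p under 0.05 in shHMGA2-2, with a median log2 fold change of -0.25, and DESeq2 called 3. A majority of all genes passed even an adjusted p under 0.05 there. VCL (vinculin) was at -0.95 ± 0.06 (adjusted p = 2.05e-12), NECTIN1 at -0.94 ± 0.12 (1.79e-07) and CTNNA1 (alpha-catenin) at -0.85 ± 0.06 (7.04e-12). The summed level of the list was 3016 to 3031 CPM in shNC, 2488 to 2491 CPM in shHMGA2-1 and 2260 to 2298 CPM in shHMGA2-2. Those with the largest changes were CAMSAP3, which anchors microtubules at junctions, PLEKHA7, its junction partner, and JUP (plakoglobin), a catenin of junctions and desmosomes. CAMSAP3 was counted 0 and 1 times in shNC, 51 and 50 times in shHMGA2-1, and 137 and 172 times in shHMGA2-2. CAMSAP3 and PLEKHA7 passed the filter on low counts only through the knockdown lines, which favoured calls higher than shNC. PLEKHA7 was counted 9 and 13, 55 and 54, and 126 and 123 times (log2 2.22 ± 0.32 and 3.41 ± 0.29 against shNC, adjusted p = 6.84e-06 and 2.52e-10). JUP was counted 45 and 47, 255 and 207, and 126 and 146 times (2.25 ± 0.19 and 1.48 ± 0.20, adjusted p = 8.59e-10 and 6.61e-07). The main catenin CTNNB1 (beta-catenin) had 0.07 ± 0.06 and -0.25 ± 0.06.

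Of 25 other genes of the cadherin superfamily, 14 were tested. There were 2 higher and 2 lower in shHMGA2-1, 2 higher and 4 lower in shHMGA2-2, and 1 higher and 2 lower between the knockdown lines. The shares called over all genes were 8.49%, 21.3% and 15.1%. Of the multi-pass cadherins of planar cell polarity, CELSR1 and CELSR2 went in opposite directions in shHMGA2-2. CELSR3 was higher by log2 0.54 ± 0.16 in shHMGA2-1 and 0.67 ± 0.16 in shHMGA2-2 (edgeR adjusted p = 0.013 and 0.001), under 2-fold. CELSR1 fell in shHMGA2-2, with 184 and 150 counts against 690 and 685 in the control and 715 and 687 in the other knockdown line (log2 -2.12 ± 0.12, adjusted p = 1.08e-13), while CELSR2 rose from 93 and 96 to 256 and 232 and then 553 and 618 (1.29 ± 0.14 and 2.55 ± 0.13, adjusted p = 1.31e-07 and 3.05e-14). DSC2, a desmosomal cadherin, fell in both, from 335 and 282 to 108 and 123 and then 37 and 34 (-1.49 ± 0.15 and -3.19 ± 0.19, adjusted p = 3.99e-08 and 3.20e-13).

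Among 19 regulators of CDH1 and of the switch, 6 were tested. Of these, 1 rose in shHMGA2-1, 3 rose and 2 fell in shHMGA2-2, and 2 rose and 2 fell between the knockdown lines. Beside them, 8.49%, 21.3% and 15.1% of all genes were called. SNAI2 (Slug), a repressor of CDH1, was counted 109 and 112, 95 and 86, and 492 and 483 times (2.06 ± 0.13 in shHMGA2-2, adjusted p = 2.30e-12), and ESRP2, an epithelial splicing regulator, 23 and 16, 46 and 25, and 116 and 148 times (2.67 ± 0.29, adjusted p = 1.89e-08). KLF8, a repressor of CDH1, was counted 8 and 12, 95 and 115, and 73 and 89 times (3.30 ± 0.31 and 2.92 ± 0.32, adjusted p = 6.40e-09 and 2.59e-08). KLF8 passed the filter on low counts only through the knockdown lines, which favoured calls higher than shNC. ZEB1, which represses CDH1, had a log2 fold change of -1.50 ± 0.07 in shHMGA2-2 (adjusted p = 1.13e-14).

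Known regulators of the protocadherin clusters were read in every line. All 21 genes of that list (among them cohesin subunits and DNA methyltransferases) were tested. None was called by edgeR or DESeq2 in shHMGA2-1 or between the knockdown lines (8 and 12 had an unadjusted p under 0.05). In shHMGA2-2 edgeR called 1, DNMT3B, lower, and DESeq2 called 2, with 17 at an unadjusted p under 0.05. DNMT3B, which sets DNA methylation, was counted 457 and 475, 316 and 267, and 216 and 190 times, with log2 -0.76 ± 0.12 (adjusted p = 2.14e-05, under 2-fold) and -1.28 ± 0.12 (adjusted p = 3.81e-09). Of 15 genes of cadherin shedding and turnover, all tested, none was called in any of these comparisons by edgeR or DESeq2. An unadjusted p under 0.05 was found for 4 in shHMGA2-1, 10 in shHMGA2-2 and 7 between the knockdown lines. Beside both lists, edgeR called 8.49% of all genes in shHMGA2-1, 21.3% in shHMGA2-2 and 15.1% between the knockdown lines. By an adjusted p under 0.05 alone, 33.4% of all genes passed in shHMGA2-1 and a majority in each of the other comparisons.

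With the knockdown lines joined against shNC, where their difference counts as error, only PCDHAC2 and PCDHGA1 of the 32 tested members were called, both higher, against 3.09% of all genes (1.72% higher). The log2 fold changes were 4.24 ± 0.85 (edgeR adjusted p = 0.036) and 1.75 ± 0.35 (adjusted p = 0.044). PCDHAC2 and PCDHGA1 had passed the filter on low counts only through the knockdown lines. No member was called by edgeR once any of the 6 libraries was left out, with 6 to 16 members at an unadjusted p under 0.05, and DESeq2 on all libraries called 8.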

How the data were processed

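RNA-seq of MDA-MB-231 cells was examined in 6 libraries, 2 for each line (shNC and the knockdown lines shHMGA2-1 and shHMGA2-2), grouped by the sample titles. The table deposited by the authors gave raw read counts per gene and FPKM values; the FPKM equal the counts divided by gene length and library total (100% of values, tolerance 0.01). The submitters' processing notes name HISAT2 2.2.1, HTSeq 0.6.1 and GRCh38.p13; the counting mode and strand setting are not given in the sources used here. PCR duplicates were not marked by molecular identifiers as far as the sources state, so floors and exact intervals cover counting error only.

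Counts were fitted with edgeR 4.0.16 in R 4.3.3 (quasi-likelihood test, TMM factors 0.958 to 1.05, filterByExpr) in a model with 3 groups, and with the knockdown lines joined in a model with 2 groups. Benjamini-Hochberg adjustment ran over all 16110 genes tested, and a gene was called at an adjusted p under 0.05 and at least 2-fold. Errors of fold changes are standard errors; none is given where a group was at 0. FPKM served only to compare levels between genes. The alternatives were DESeq2 1.42.0, RLE and upper quartile scaling, other filters on low counts, no minimum fold, a replicate block and leaving out each library. Scripts were tested on simulated counts.

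The named genes were the members called in any comparison of the model with 3 groups, CDH1, CDH2, CDH3, CDH4, CDH5, CDH6, CDH11 and CDH13, the 3 members of highest FPKM in each class, HMGA2, and the 3 called genes of largest change in each list; other names were added after their values were seen. The members and lists were chosen with earlier results of these data known. Shared exons were counted from GENCODE release 29 and promoter windows taken from RefSeq (GRCh38.p14) by symbol, matching 74 members.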

Additional observations from a re-analysis of the deposited data

Results flagged for a closer look

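In the direct contrast of the knockdown lines, 17 members differed between shHMGA2-2 and shHMGA2-1 past both thresholds. The lines differ in both shRNA and clone, which cannot be told apart here. The values are the log2 effect in shHMGA2-2 minus that in shHMGA2-1, from edgeR on 2 libraries per line, and 15.1% of all genes passed the same thresholds.

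Members lower in shHMGA2-2 were PCDH7 (-3.89), CDH20 (-2.25), PCDHGB7 (-1.48), PCDHAC1 (-1.46), PCDH12 (-1.09) and PCDHB11 (-1.002). Members higher in shHMGA2-2 were PCDHGA4 (1.05), PCDHB14 (1.06), PCDHGA7 (1.37), PCDHB13 (1.37), PCDH1 (1.51), PCDHGA5 (1.60), PCDHGB3 (1.63), PCDHGA6 (1.64), PCDHGB2 (1.71), PCDHB16 (2.01) and PCDHB6 (4.27). The PCDHB6 value comes from 1 count over both shHMGA2-1 libraries and depends on the prior count of the fit; the ratio of levels was 24.0 with an exact counting interval of 3.91 to 985. The fitted effects had opposite signs against shNC for CDH20, PCDH12, PCDHB11, PCDHGA4, PCDHGB3 and PCDHGB2. PCDHB6, PCDH1 and PCDHGA7 passed the filter on low counts only through shHMGA2-2, and PCDHAC1 only through shHMGA2-1. CDH20 passed only through shHMGA2-1 and shNC replicate 2. These members could only be called in the direction given.

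Groups of 2 libraries are too small for a search for outlying libraries, and the table held no measurement outside these comparisons.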

How the results depend on the processing

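Of the 875 alternative values of 25 single members, 809 kept their direction and their side of the thresholds, 42 lost a call, 3 gained a call and 21 changed sign. The 21 belonged to 9 members that passed no threshold in that comparison, with log2 fold changes of at most 0.36 in size. In shHMGA2-1, PCDH7 came to 0.0097 with upper quartile scaling, and CDH4 to -0.0031 with DESeq2 and -0.0028 with any gene of at least 1 count. The others came from leaving out a library, which gave, in shHMGA2-1, -0.11 to 0.0031 for PCDH7, -0.44 to 0.11 for PCDHGB3, -0.37 to 1.07 for PCDHGA7 and -0.078 to 0.10 for CDH4. In shHMGA2-2 it gave -0.035 to 0.40 for PCDHGB2, -0.97 to 0.059 for PCDH12 and -0.0062 to 0.14 for CDH4. Between the knockdown lines it gave -0.95 to 0.25 for PCDHB2, -0.21 to 0.11 for PCDHAC2, -0.033 to 0.15 for CDH4 and -0.23 to 0.13 for CDH24. The number of members called depended on the filter on low counts. With a mean CPM of at least 1 it was 3 in shHMGA2-1, 10 in shHMGA2-2, 10 between the knockdown lines and 1 for both lines together, with 22 members left to test, and with any gene of at least 1 count it was 10 in shHMGA2-1. Without a minimum fold it was 11 in shHMGA2-1, 22 in shHMGA2-2 and 18 between the knockdown lines. With DESeq2 it was 10 between the knockdown lines and 8 for both lines together. The mean of both contrasts in the model with 3 groups, which does not take the difference between the lines as error, called 12 members. Leaving out each library in turn gave 6 to 7 in shHMGA2-1, 15 to 18 in shHMGA2-2, 12 to 17 between the knockdown lines, and 0 to 0 for both lines together; in each refit a line left with 1 library was assumed to vary like the others. Replicates 1 and 2 did not deviate together between lines (correlations -0.02, 0.00 and -0.10), so the numbers do not pair the samples; with the replicate block 6, 18, 16 and 0 members were called (11 at an unadjusted p under 0.05 in the last). Upper quartile scaling moved the median of all genes to 0.14 in shHMGA2-2 and to 0.13 for both lines together. The cause of these shifts was not tested.

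With 2 libraries per line, 44 members at or under 3 counts everywhere and 26 more under the filter, most of the family was not measured well enough for a comparison.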
